A study of Mus musculus with 8 samples.

Results

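The 10 genes described here encode transcription regulators of the B lineage other than Pax5: Ebf1, Ikzf1, Ikzf3, Foxo1, Lef1, Bach2, Irf4, Irf8, Pou2af1 and Spib. They were taken by name, current or older, from the gene names of the non-control probes of a 2-colour mouse expression array, whatever their values. The arrays held 19 probes for them. All 10 were among the 20038 features (genes, or single probes without a gene name) whose signal was high enough to be measured.

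The cells were bone marrow-derived pro/preB cells from Pax5-/- mice, cultured with IL-7 over a feeder layer of irradiated OP9 stromal cells. Clone 4 had been transduced with 2 retroviral vectors, pSR-rtTA-IRES-HISRes, which encodes the doxycycline-dependent activator rtTA, and pSR-TRE-huPax5, which holds a human Pax5 transgene under its control, and was selected with histidinol and puromycin. RNA of clone 4 given doxycycline at 10, 300 or 1000 ng/ml, and RNA of Pax5sz2, was each set against RNA of clone 4 without doxycycline. Pax5sz2 cells were also Pax5-/- and carried rtTA but no huPax5. They are labelled as treated with doxycycline, with no dose. Each of these 4 comparisons was hybridised on a pair of arrays with swapped dyes, which makes 8 arrays. All clone 4 RNAs come from 1 clone, and the labels name no replicate cultures, so a comparison is 1 RNA sample measured by 2 arrays and every SD below is that of those 2 arrays. For Pax5sz2, effects of the transgene, of doxycycline and of having other cells cannot be told apart. The huPax5 transgene is human and no probe for it was used, so its level at each dose was not measured here.

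B cell development is driven by a small network of such regulators. Ebf1 and Foxo1 act early, together with the E proteins, to open the B cell program, while Ikaros (Ikzf1) and its relative Aiolos (Ikzf3) restrain growth and other fates in pre-B cells. Irf4 and Irf8 act partly in place of each other at the step from dividing pro-B or pre-B cells to resting pre-B cells, with the Ets family members PU.1 and Spi-B as partners on joint DNA sites. Lef1, Bach2 and the coactivator Pou2af1 (OCA-B or Bob1) complete the group. Pax5 works on top of this network and is known to bind at several of these genes, and Ebf1 and Pax5 are known to sustain each other.

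To show where such factors could meet the members' own genes, the 250 bases before each annotated start were read from RefSeq (GRCm38.p6). A window was found for 9 of the 10 genes, all but Ikzf3, and there were 15 in all. Each window was searched on both strands for 8 short motifs. The letters CCCNNGGG, bound by Ebf1, occurred at Ikzf1, Foxo1 and Spib, in 3 of the 15 windows, and in 11.8% of all 32851 windows. The letters CTTTGA, bound by Lef1, occurred at Lef1 itself and at Bach2, in 2 of the 15 windows, and in 13.8% of all windows. The joint Ets and IRF motif, GGAA and GAAA with any 2 bases between them, occurred at Bach2, in 1 of the 15 windows, and in 2.3% of all windows. The Ikaros letters TGGGAA occurred at Ebf1 and Irf8 (2 of the 15 windows, 21.6% of all) and the E-box CAGGTG at Irf8 (1 of 15, 17.2% of all). The forkhead letters GTAAACA (3.17%), the Bach letters TGAGTCA (4.46%) and the octamer ATGCAAAT (1.6%) had no match in the members' windows. These are matches of letters only and were not tested as sites. The motifs do not overlap each other in the windows shown.

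The window of Foxo1 (chr3:52268087-52268336, plus strand) and that of the first annotated start of Ikzf1 (chr11:11685675-11685924, plus strand) are printed because both hold CCCGAGGG, and both genes were past 2-fold in some comparison. The capitals mark those letters, which run from 91 to 84 bases before the start at Foxo1 and from 56 to 49 at Ikzf1.
Foxo1: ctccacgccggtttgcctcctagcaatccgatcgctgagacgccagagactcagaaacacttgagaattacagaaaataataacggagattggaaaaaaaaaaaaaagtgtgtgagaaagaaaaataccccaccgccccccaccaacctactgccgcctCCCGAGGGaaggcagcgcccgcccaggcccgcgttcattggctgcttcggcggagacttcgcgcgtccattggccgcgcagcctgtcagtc
Ikzf1: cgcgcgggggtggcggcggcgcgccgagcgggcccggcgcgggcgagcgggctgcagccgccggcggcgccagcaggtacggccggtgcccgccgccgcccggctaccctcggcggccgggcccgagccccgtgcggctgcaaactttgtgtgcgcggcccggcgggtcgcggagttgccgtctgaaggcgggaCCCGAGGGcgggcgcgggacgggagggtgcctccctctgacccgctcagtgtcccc

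The window of Bach2 (chr4:32417185-32417434, plus strand) and that of the fourth annotated start of Lef1 (chr3:131156044-131156293, plus strand) are printed because they hold the Lef1 letters, here as TCAAAG on the strand shown, and because Lef1 and Bach2 were both past 2-fold at 1000 ng/ml. At Bach2 the second run of capitals is the joint Ets and IRF match, 17 to 8 bases before the start.
Bach2: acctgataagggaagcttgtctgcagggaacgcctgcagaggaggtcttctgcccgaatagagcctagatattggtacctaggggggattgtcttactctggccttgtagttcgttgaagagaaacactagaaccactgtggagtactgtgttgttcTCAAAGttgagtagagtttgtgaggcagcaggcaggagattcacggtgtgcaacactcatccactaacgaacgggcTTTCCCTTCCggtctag
Lef1: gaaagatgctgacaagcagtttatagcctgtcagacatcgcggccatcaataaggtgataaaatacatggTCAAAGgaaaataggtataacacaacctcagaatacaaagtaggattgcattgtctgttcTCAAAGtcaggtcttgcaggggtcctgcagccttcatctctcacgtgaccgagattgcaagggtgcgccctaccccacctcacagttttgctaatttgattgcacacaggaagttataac

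Ratios are log2 of the named RNA over clone 4 without doxycycline, after background correction and loess within each array, so a positive value means higher in the named RNA. A gene is given by its brightest measured probe. Other probes of the 10 genes, and other measured probes of each further gene named with its values from a list, are given beside it. A gene counts as past the size where it was at least 2-fold (log2 of 1) higher, or lower, on both arrays, a rule of size with no test. Levels are normalized log2 intensities and are compared only within a probe. Between 59.5% and 75.5% of the spots of a channel were well above background on the 10 ng/ml, 300 ng/ml and Pax5sz2 arrays, and between 40.4% and 45.1% on the 1000 ng/ml arrays. The scanner software made this call with a multiplier of 2.6 on the 1000 ng/ml pair and of 13 on the other 6 arrays. The number of arrays limits the precision. Of 13 markers of pro-B and pre-B cells, 11 were well above background in the named RNA of at least 6 of the 8 arrays. The exceptions were the surrogate light chain genes Igll1, on 3 of 8 arrays in the named RNA and 3 of 8 in clone 4 without doxycycline, and Vpreb1, on 4 and 3 of 8. In these mixed cultures, fewer cells of a type and less RNA per cell cannot be told apart.

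Which way the 1000 ng/ml ratios run is unsettled. Across all probes its arrays ran against those of 300 ng/ml with like dye orientation, with r = -0.359 for the named RNA in Cy5 and r = -0.46 for the named RNA in Cy3 (across 41174 probes, which are not independent replicates). These 2 arrays were also scanned before the others, on rehybridised slides and with another scanner protocol, so the dose and this batch cannot be told apart. Values of this pair are given as labelled, and each would have the opposite sign if its 2 RNAs were exchanged.

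At 10 ng/ml, 1 of the 10 genes was past the size, Ikzf1, which was lower. In this comparison 1.88% of all features were past the size, 0.609% higher and 1.27% lower. The median ratio was -0.14 over the 10 genes and 0.01 over all features. At 300 ng/ml 3 genes were past it, Ikzf3 and Irf4 higher and Ikzf1 lower, against 3.67% of all features (1.32% higher, 2.36% lower). The medians were 0.31 over the genes and 0.00 over all features. This split of 2 higher and 1 lower was 1 and 1 with median centring in place of loess, 2 and 0 with the scanner's processed signals, and 0 and 1 without normalization. The share of all features past the size was 2.4%, 9.42% and 1.97% in these settings.

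At 1000 ng/ml as labelled, 5 genes were past the size, all lower: Ebf1, Ikzf3, Lef1, Bach2 and Irf4. Among all features 2.57% were past it, 1.93% higher and 0.634% lower. Of the 10 genes 9 were below 0 on both arrays, a count that was not made over all features. The median over the 10 genes was -1.01, against 0.00 over all features. With the sign turned the same 5 genes are higher. In Pax5sz2, 4 genes were past the size, Ikzf3 higher and Ebf1, Foxo1 and Lef1 lower, against 5.17% of all features (2.34% higher, 2.83% lower). The median was -0.15 over the genes and 0.03 over all features. The split of 1 higher and 3 lower was 1 and 1 with median centring, 2 and 3 with processed signals, 1 and 0 without normalization, and 0 and 2 with the mean of each gene's probes, next to 3.4%, 10.6%, 1.52% and 3.91% of all features. In all, 7 of the 10 genes were past the size in at least 1 comparison, and Irf8, Pou2af1 and Spib in none. Among all features 9.17% were past it in at least 1 comparison.

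**Figure D1:**
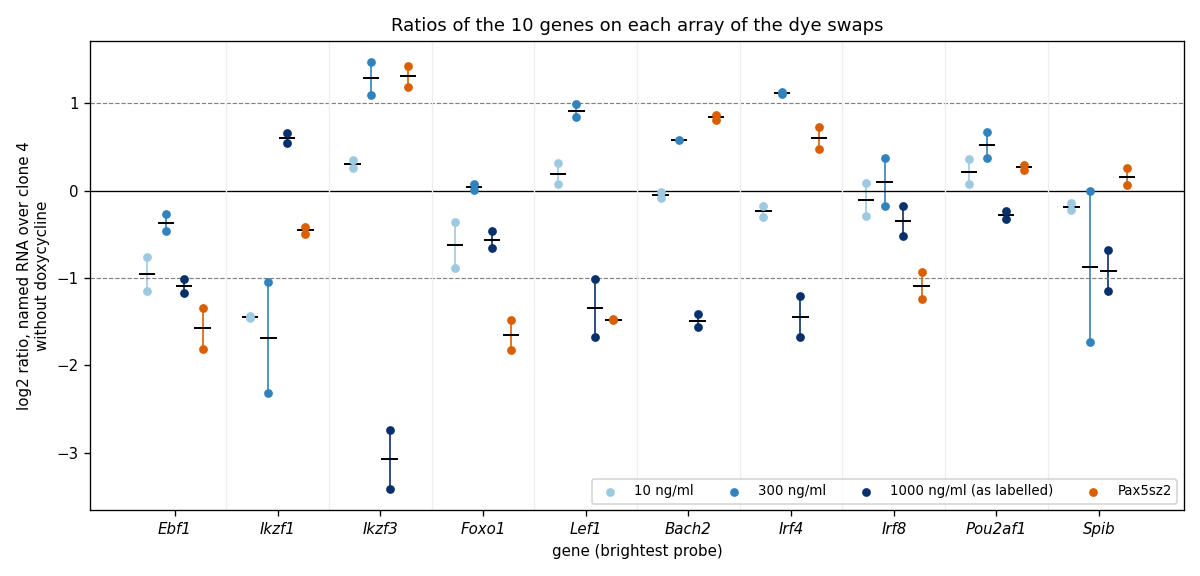
The vertical axis gives the log2 ratio of the named RNA over clone 4 without doxycycline for the brightest probe of each of the 10 genes. Points are single arrays, a line joins the 2 arrays of a dye swap, the black bar is their mean and the dashed lines mark 2-fold, and Ikzf3 reaches -3.41 at 1000 ng/ml as labelled and 1.47 at 300 ng/ml, while Spib at 300 ng/ml spans from -1.74 to -0.01 between its 2 arrays.

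**Figure D2:**
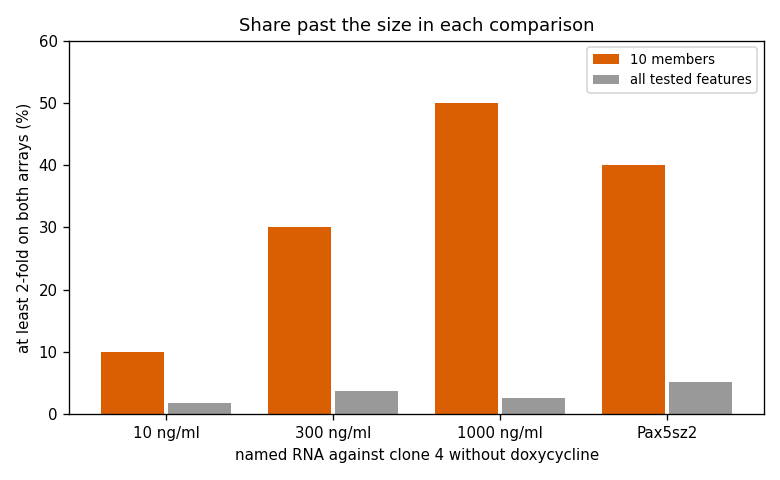
Bars give the share, in percent, that was at least 2-fold higher or lower on both arrays, in each comparison. The 10 genes reached 10%, 30%, 50% and 40% at 10, 300 and 1000 ng/ml and in Pax5sz2, next to 1.88%, 3.67%, 2.57% and 5.17% of all features.

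Ebf1, the factor that specifies the B lineage, was below clone 4 without doxycycline on every array as labelled, after loess. Its brightest probe (NM_007897, mm8 chr11:44848286-44848345) read log2 ratios of -1.15 and -0.77 at 10 ng/ml, -0.46 and -0.27 at 300 ng/ml, -1.17 and -1.01 at 1000 ng/ml as labelled, and -1.81 and -1.34 in Pax5sz2. Thus Pax5sz2 was lowest, 1000 and 10 ng/ml overlapped each other, and 300 ng/ml lay nearest to the control. In Pax5sz2 the levels of this probe were 9.49 and 9.59, against 11.30 and 10.94 in clone 4 without doxycycline, a 2.98-fold lower mean. A second probe, for the cDNA AK036716 (356 kb away on the same chromosome, chr11:44492539-44492598), read -0.96 and -0.64 at 10 ng/ml and -0.43 and -0.54 at 300 ng/ml. It read -0.25 and -0.29 at 1000 ng/ml and -0.40 and -0.11 in Pax5sz2. The probes therefore lay within 0.16 of each other at 10 and 300 ng/ml, and 0.82 and 1.32 apart at 1000 ng/ml and in Pax5sz2. The mean of both probes was -0.68 at 1000 ng/ml and -0.91 in Pax5sz2, short of the size in both. The 1000 ng/ml call ended in 5 of 7 other ways of computing the ratio, this mean among them, and the Pax5sz2 call in 2 of 7.

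Foxo1, a forkhead factor that acts with Ebf1 at the entry into the B lineage and that phosphoinositide signalling keeps out of the nucleus, was past the size in Pax5sz2. There its brightest probe (NM_019739, chr3:52434190-52434249) had levels of 10.51 and 10.93, against 12.34 and 12.42 in clone 4 without doxycycline, with log2 ratios of -1.83 and -1.49 and a 3.15-fold lower mean. At the doses the ratios were -0.89 and -0.36 at 10 ng/ml, 0.07 and 0.00 at 300 ng/ml and -0.46 and -0.66 at 1000 ng/ml as labelled. Only the 10 and 1000 ng/ml values overlapped among the 4 conditions. A second Foxo1 probe 3.11 kb away read -0.66 and -0.41, 0.09 and 0.59, and -0.57 and -0.41 at 10, 300 and 1000 ng/ml, and -0.99 and -0.77 in Pax5sz2. It was lowest in Pax5sz2 too, but short of 2-fold there. With median centring the brightest probe read -0.96 and -1.57 in Pax5sz2, where the call ended.

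Ikzf1, which encodes Ikaros, was lower at 10 and 300 ng/ml. Its 1 probe (NM_001025597, chr11:11658319-11661278, an interval of 2960 bases for a short probe) had levels of 11.42 and 11.43 at 10 ng/ml, against 12.87 and 12.86 in clone 4 without doxycycline. The ratios there were -1.46 and -1.44, a 2.73-fold lower mean with an SD of 0.012. At 300 ng/ml the levels were 10.45 and 11.88, against 12.77 and 12.92 in the control, and the ratios -2.32 and -1.04. The first of those arrays is thus far from the second, and with the scanner's own processed signals the 300 ng/ml ratios were -0.39 and -1.30, with a mean of -0.85 that is short of the size. Pax5sz2 read -0.49 and -0.42, but its mean was 0.28 without normalization. Ikzf1 was at 1000 ng/ml as labelled the 1 gene of the 10 above 0 on both arrays, at 0.55 and 0.66. With median centring the 10 ng/ml ratios were -0.57 and -1.77, so that call ended.

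Ikzf3, which encodes Aiolos, the Ikaros relative that rises as pre-B cells mature, had the widest range of the 10 genes. Its brightest probe (AK004152, chr11:98300382-98300441, minus strand) read 0.26 and 0.35 at 10 ng/ml and 1.096 and 1.47 at 300 ng/ml, and 1.19 and 1.43 in Pax5sz2. The 1000 ng/ml arrays as labelled read -3.41 and -2.74, an 8.43-fold lower mean. The named RNA was higher than the control on all 6 arrays of the first 3 conditions and lower on both 1000 ng/ml arrays, and 300 ng/ml overlapped Pax5sz2. The other Ikzf3 probes stayed within 2-fold on every array. The probe of the coding transcript NM_011771, 17.2 kb away, read 0.11 and -0.22, 0.24 and -0.16, and -0.30 and -0.33 at 10, 300 and 1000 ng/ml, and 0.09 and -0.08 in Pax5sz2. At 1000 ng/ml it was well above background on 0 arrays in the named RNA and 1 in the control. The AF001293 probe was not well above background there in either RNA. The AF001293 probe had the same signs as the brightest probe on all 8 arrays, but lay between -0.06 and 0.32. So did the AK036657 probe in sign, between -0.75 and 0.22, but it was never well above background on both arrays of an RNA. With the mean of its measured probes Ikzf3 was at 0.47 at 300 ng/ml and at 0.52 in Pax5sz2, short of the size, and at -1.14 at 1000 ng/ml, past it. The last of these means takes in the probes that were dim there. The mean of the brightest probe also depended on the processing. With the series matrix ratios it was 2.21 in place of 1.28 at 300 ng/ml and -4.34 in place of -3.08 at 1000 ng/ml.

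**Figure D3:**
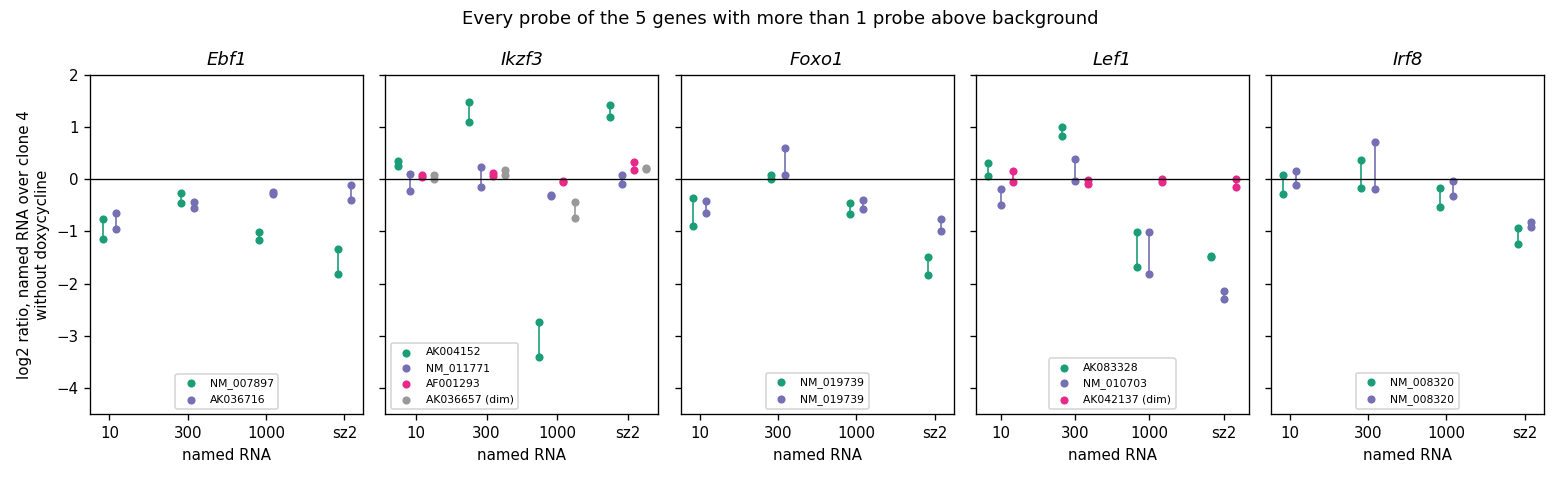
The vertical axis gives the log2 ratio of the named RNA over clone 4 without doxycycline for every probe of 5 genes with more than 1 measured probe. Points are single arrays, colours are probes named by their transcript, "dim" marks probes that did not pass detection, and the 2 measured probes of Foxo1, Irf8 and Lef1 lie on the same side of 0 in Pax5sz2, whereas the AK004152 probe of Ikzf3 stands apart from its other probes and the NM_007897 probe of Ebf1 lies 1.32 below its second probe there.

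Irf4, which promotes the pre-B cell transition and light chain rearrangement, was past the size at 300 ng/ml. Its probe (NM_013674, chr13:30774055-30774114) had levels of 7.98 and 7.58 there, against 6.85 and 6.48 in clone 4 without doxycycline, with ratios of 1.126 and 1.099 and a 2.16-fold higher mean. At 10 ng/ml it read -0.30 and -0.18 and in Pax5sz2 0.48 and 0.72. At 1000 ng/ml as labelled the ratios were -1.21 and -1.68, but the named RNA was not well above background on either array. Against the higher of the detection level and the probe's own level on each array, Irf4 was at least 2.04-fold lower. The mean at 300 ng/ml depended on the processing, at 1.56 with a background offset of 10 and 2.02 with the series matrix ratios. With processed signals Irf4 was past the size in Pax5sz2 as well, at 1.12 and 1.88. Median centring gave 1.41 and 0.90 at 300 ng/ml, where the call ended.

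Irf8, the related factor of B cell and myeloid development, passed the size in no comparison. Its brightest probe (NM_008320, chr8:123642401-123642460) read 0.08 and -0.29 at 10 ng/ml, 0.37 and -0.18 at 300 ng/ml and -0.17 and -0.52 at 1000 ng/ml as labelled. In Pax5sz2 it read -0.93 and -1.25, with levels of 11.79 and 11.76, against 12.72 and 13.003 in clone 4 without doxycycline. A second probe 0.435 kb away read -0.82 and -0.91 in Pax5sz2, and between -0.32 and 0.71 at the 3 doses. Both probes were thus lowest in Pax5sz2, with means 2.13-fold and 1.82-fold lower, while at 10 and 300 ng/ml the sign differed between the 2 arrays.

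Spib, which encodes the Ets factor Spi-B, also passed in none. Its probe (NM_019866, chr7:44394318-44394377, minus strand) read -0.14 and -0.23 at 10 ng/ml and 0.06 and 0.25 in Pax5sz2. Its levels at 300 ng/ml were 7.79 and 9.93, against 9.53 and 9.94 in clone 4 without doxycycline, and the ratios -1.74 and -0.01, so 1 array decided that value. The 1000 ng/ml ratios as labelled were -0.68 and -1.15. The first 300 ng/ml array also gave the lower value of Ikzf1. It had 295 outlier spots, against 37 to 115 on the other 7 arrays.

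Lef1, a nuclear partner of beta-catenin that early B cell progenitors use for growth and survival, was lower in Pax5sz2 with both measured probes. The AK083328 probe (chr3:131213273-131213332) had levels of 9.62 and 9.66 there, against 11.11 and 11.13 in clone 4 without doxycycline, ratios of -1.48 and -1.47 and a 2.79-fold lower mean. The NM_010703 probe, 19.2 kb away, read -2.15 and -2.29, a 4.65-fold lower mean. The 300 ng/ml arrays gave the AK083328 probe 0.84 and 0.99, close below the size, and the NM_010703 probe 0.39 and -0.04. At 10 ng/ml they read 0.07 and 0.32, and -0.18 and -0.50. At 1000 ng/ml as labelled both were past 2-fold, at -1.01 and -1.68 and at -1.002 and -1.81. Median centring ended both calls of the AK083328 probe, with -0.71 and -1.58 in Pax5sz2 and -0.12 and -2.78 at 1000 ng/ml. The AK042137 probe was not measured above background.

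Bach2, a repressor that holds B cells back from the plasma cell program and acts with Pax5 at the pre-B cell checkpoint, was past the size at 1000 ng/ml as labelled. Its measured probe (NM_007521, chr4:32909704-32909763) had levels of 9.87 and 9.55 there, against 11.29 and 11.10 in clone 4 without doxycycline, and ratios of -1.41 and -1.56. With median centring these were -0.54 and -2.49, and the call ended. In Pax5sz2 the ratios were 0.86 and 0.81, and at 10 ng/ml -0.02 and -0.08. The spot at 300 ng/ml was marked as an outlier on 1 array and left out, and the other array read 0.58. A probe for the cDNA AK079106 was not measured above background.

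Pou2af1, the B cell coactivator of the octamer factors, had the smallest range of mean ratios. Its probe (NM_011136, chr9:50992233-50992292) read 0.08 and 0.36 at 10 ng/ml, 0.37 and 0.67 at 300 ng/ml, -0.32 and -0.24 at 1000 ng/ml as labelled, and 0.29 and 0.24 in Pax5sz2. It was above the control on the 6 arrays of 10 ng/ml, 300 ng/ml and Pax5sz2 and below it on the 1000 ng/ml pair. The mean differed by at most 1.44-fold, and 10 ng/ml and Pax5sz2 overlapped.

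The level in the RNA labelled as clone 4 without doxycycline could be compared across all 8 arrays. By the brightest probe, the level on both 1000 ng/ml arrays was above that on all 6 other arrays for 8 of the 10 genes. For Ikzf1 and Pou2af1 the ranges overlapped. Among all features 17.1% were above and 19.6% below in the same sense. The second measured probes of Ebf1 and Lef1 were also above, but those of Foxo1 and Irf8 overlapped. The NM_011771 probe of Ikzf3, at 7.08 and 7.23 against 6.64 to 7.09, and its AF001293 probe overlapped too, both near background on the 1000 ng/ml arrays. The Ikzf3 control level was 11.07 and 10.49 on the 1000 ng/ml arrays, against 6.66 to 7.11 on the other 6. That of Bach2 was 11.29 and 11.10, against 9.23 to 9.65 on the other 5 with a value, and that of Irf4 7.64 and 8.98, against 6.41 to 6.85. Lef1 stood at 12.08 and 13.15, against 11.01 to 11.48, and Spib at 11.03 and 11.10, against 9.53 to 10.04. For Bach2 and Ikzf3 the named RNA on the 1000 ng/ml arrays was closer to the control of the other arrays, at 9.87 and 9.55 and at 7.66 and 7.75. The second Foxo1 probe went the other way. Its control read 11.52 and 11.49 there, against a median of 11.49 on the other arrays, and its named RNA 10.95 and 11.08. How many of all features lay either way was not counted.

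**Figure D4:**
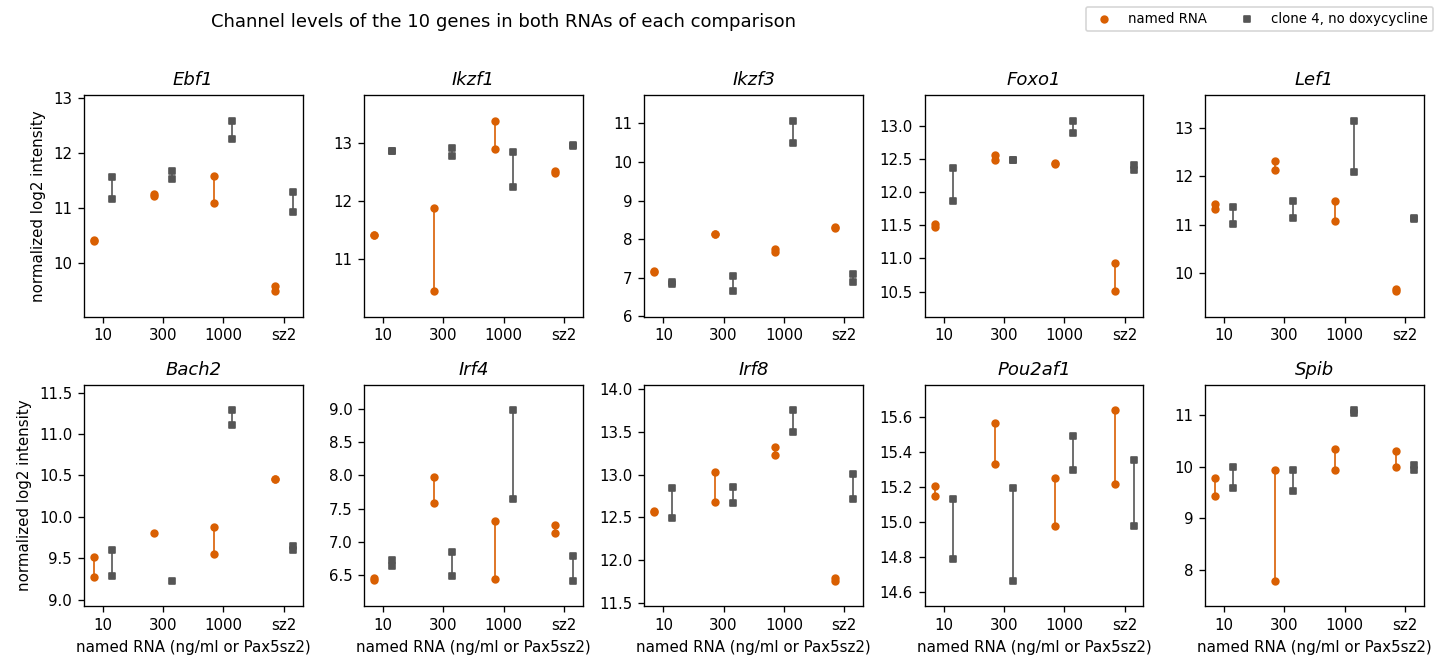
Each panel gives the normalized log2 intensity of 1 gene's brightest probe, with circles for the named RNA and squares for clone 4 without doxycycline, and a line between the 2 arrays of each dye swap. The horizontal axis lists the dose in ng/ml and Pax5sz2 (sz2), and in Ikzf3, Bach2, Lef1, Irf4, Spib and Ebf1 the squares at 1000 lie above the squares of all other comparisons.

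A mean doxycycline effect over the 3 doses was tested with limma across all 20038 features, each dose being 1 sample, and the difference between Pax5sz2 and the mean of the doses in the same way. As labelled, 0 features (0%) had an adjusted p under 0.05 for the mean effect, the smallest being 0.7, and 1192 had an unadjusted p under 0.05. Of the 10 genes 2 had such an unadjusted p, against 5.95% of all features, and 0 with a trended, robust variance prior, under which 0 features had one. They were Ebf1 at -0.80 (unadjusted p = 0.0161, adjusted p = 0.7 in limma, below 0 at 3 of 3 doses) and Spib at -0.66 (unadjusted p = 0.0339, adjusted p = 0.7, below 0 at 3 of 3 doses). With the 1000 ng/ml sign turned, 0 features passed (smallest adjusted p = 0.12), 4910 (24.5%) were under the unadjusted threshold, and 3 of the 10 genes among them, Ikzf1 at -1.24, Lef1 at 0.82 and Pou2af1 at 0.34. Without the 1000 ng/ml pair 2829 features (14.1%) passed, and so did 1 of the 10 genes, Ikzf1, with a mean of -1.56 (SE 0.091, adjusted p = 0.0378 in limma, below 0 at 2 of 2 doses). That SE leaves out the spread of the 300 ng/ml arrays, which read -2.32 and -1.04 for Ikzf1. Their mean was -0.85 with processed signals. In that fit 3 of the 10 genes, and 37.8% of all features, had an unadjusted p under 0.05, the others being Ebf1 at -0.66 and Pou2af1 at 0.37. All ratios share the RNA labelled as clone 4 without doxycycline, so the test leaves out that RNA's own spread, and differences between doses count as spread.

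For Pax5sz2 minus the doses, 0 features passed as labelled (smallest adjusted p = 0.0879, 1441 with an unadjusted p under 0.05). The lone Pax5sz2 sample was assumed to vary like the doses. Foxo1 had a difference of -1.27 (SE 0.34, unadjusted p = 0.0275, adjusted p = 0.59 in limma), and Irf8 had a difference of -0.97 (SE 0.23, unadjusted p = 0.0187, adjusted p = 0.537). These were 2 of the 10 genes under the unadjusted threshold, against 7.19% of all features. With the sign turned 11 features (0.0549%) passed, 0 of the 10 genes among them. Without the 1000 ng/ml pair 0 features passed, and 4 of the 10 genes, against 18.9% of all features, had an unadjusted p under 0.05: Lef1 (-2.03, adjusted p = 0.165), Foxo1 (-1.36, adjusted p = 0.213), Irf8 (-1.08, adjusted p = 0.135) and Ikzf1 (1.11, adjusted p = 0.141).

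Other regulators of B cell development were past the size in a few cases. Of 31 tested, 10 ng/ml had 0 past it. At 300 ng/ml Id3, an inhibitor of E proteins, was higher (1.06 ± 0.033), and Id2, its relative (-1.96 ± 0.97, a second probe at -1.05), and Mef2c (-1.66 ± 0.12, but only -0.64 with a second probe) were lower. As labelled, Id2 (1.72 ± 0.15, a second probe at 1.46) and Mef2c (1.499 ± 0.061) were higher at 1000 ng/ml and Id3 (-1.60 ± 0.062) lower. In Pax5sz2 Id3 was higher (1.25 ± 0.14) and Mef2c (-2.06 ± 0.10, but only -0.45 with its second probe) and Sox4 (-1.33 ± 0.10) lower. The list's medians were 0.04, -0.08, 0.12 and -0.23 in these 4 comparisons.

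Among 22 tested relatives of the 10 genes by family, Tcf7l1, which belongs to the Lef1 family, was higher at 10 ng/ml (1.12 ± 0.12, a second probe at 0.61) and 300 ng/ml (1.22 ± 0.059, a second probe at 0.79), and Irf7, an interferon-induced relative of Irf4 and Irf8, at 300 ng/ml (1.09 ± 0.082). None was past the size at 1000 ng/ml. In Pax5sz2, Bach1, the widely expressed relative of Bach2, was lower (-2.65 ± 0.22), with Bach2 at 0.84 ± 0.039, and Irf2 was higher (1.31 ± 0.36). The list's medians lay between -0.04 and 0.10.

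Of 33 tested genes that early B cell factors are known to act on, 10 ng/ml had 0 past the size. At 300 ng/ml 2 were higher, among them Blnk, an adaptor below the pre-B cell receptor (2.62 ± 0.12), and 0 were lower. At 1000 ng/ml as labelled 4 were lower, among them Blnk (-4.20 ± 0.27), Ccnd3 (-2.12 ± 0.48) and Cd79a (-1.44 ± 0.32), and 0 were higher. In Pax5sz2, where Ebf1 and Foxo1 were past the size downward, 3 were higher, the surrogate light chain genes Vpreb1 (7.88 ± 0.94), Igll1 (5.65 ± 0.44, a second probe at 0.98) and Vpreb2 (4.23 ± 0.35). There 5 were lower, the largest being Dntt, the terminal transferase, at -4.89 ± 0.32, with other probes at -3.05 and -4.09. The list's medians were -0.10, 0.01, -0.17 and 0.06.

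Transcription factors of other lineages were past the size in a few cases. Of 22 tested, Mitf was lower at 10 ng/ml (-2.49 ± 0.13) and 300 ng/ml (-2.35 ± 0.18), with a second probe at 0 in the first of these, and Cebpb was higher at 10 ng/ml (1.45 ± 0.036, a second probe at 1.07). The 1000 ng/ml pair as labelled had Nfil3 (2.26 ± 0.0043, a second probe at 2.01), Nfe2 (1.72 ± 0.25) and Klf4 (1.19 ± 0.13) higher. In Pax5sz2 Nfil3 (-1.55 ± 0.14, a second probe at -1.66) and Klf4 (-1.34 ± 0.046) were lower.

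Genes listed as markers of other cells, and genes of the interferon response, were past the size as well. Which cells expressed them was not measured. Among all features 1.88%, 3.67%, 2.57% and 5.17% were past it at 10, 300 and 1000 ng/ml and in Pax5sz2. Of 20 stromal feeder genes, 4 in Pax5sz2 and 4, 8 and 0 at the rising doses were past the size, all higher. Their median in Pax5sz2 was 0.08. Probes of a gene could differ: a second probe of Col3a1 read -0.04 and -0.02 at 10 and 300 ng/ml, but one of Cxcl12 read 0.90 and 1.22. Between 17 and 19 of the 20 stromal feeder genes were well above background in clone 4 without doxycycline on both arrays of a comparison. The list's summed level, the log2 of summed intensities, was 14.52 to 15.84 in the named RNAs, against 14.14 to 14.84 in that control. Of 21 interferon response genes 10, 10, 1 and 7 were higher and 0 lower, with summed levels of 15.43 to 16.64 in the named RNAs, against 15.25 to 15.64 in the control. Of 12 dendritic cell genes 1 and 5 were lower at 10 and 300 ng/ml and 4 and 4 higher at 1000 ng/ml and in Pax5sz2 (summed levels 15.95 to 17.31 in the named RNAs, against 15.08 to 16.13). Of 16 T lineage genes 0, 2, 0 and 0 were lower and 0, 0, 4 and 2 higher (12.59 to 13.81 in the named RNAs, against 12.96 to 13.60). Their part in the ratios of the 10 genes was not tested.

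For the 7 genes past the size in some comparison, the named features with the most similar ratios were taken by the smallest root mean square difference over the 8 arrays. Ikzf3 was followed most closely by the asparagine synthetase gene Asns (0.506 log2 units, with means of 0.53, 0.92, -2.65 and 1.65 at the 3 doses and in Pax5sz2), then by Alpl (0.520) and Slc6a9 (0.551). For Bach2, over the 7 arrays with a value, it was Zpbp2 (0.148), Galnt12 (0.206) and Slc1a4 (0.233), and for Irf4 Snx2 (0.296), Slc1a4 (0.308) and Kirrel (0.317). Slc1a4, a neutral amino acid transporter gene, thus stood in both lists. The other nearest genes were Hivep2 (0.333), Mfsd6 (0.347) and Sh3glb1 (0.401) for Ebf1, Kansl1l (0.301), Inpp5k (0.317) and Zfp51 (0.319) for Ikzf1, Cfap46 (0.242), Ptgs2 (0.262) and Utp14a (0.296) for Foxo1, and Pfkp (0.370), Pde2a (0.413) and Map4k2 (0.473) for Lef1. Genes compared in this way share all arrays and the control RNA.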

How the data were processed

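TRIzol-isolated RNA was labelled in both dyes with an Agilent kit, per the labels' protocols. The deposited scanner files hold, per the file headers, mean and local background intensity values per spot and channel, processed intensity values after Feature Extraction's background subtraction and dye normalization, and a log10 ratio. The deposited series matrix also holds log10 ratios, which equal those of the scanner files, turned to the named RNA, within 5e-06. The scanner software was Agilent Feature Extraction 10.5.1.1, per the file headers, and probe coordinates (mm8) are those the files give. No genome or annotation of that build was used, so exons and introns are not named.

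From the spot intensities, R 4.3.3 with limma 3.58.1 (files read with the data.table package, version 1.17.8) computed log2 ratios: normexp background correction with an offset of 50, within-array loess in which control spots had weight 0, and outlier spots left out (37 to 295 an array). No spot was saturated. Ratios were turned to named RNA over clone 4 without doxycycline, from the labels, and spots of a probe were averaged. Levels were further scaled between arrays (Aquantile). A probe was measured where both arrays of some comparison called it well above background for the same RNA, which 16 of the 19 member probes were, and each gene was represented by its brightest measured probe. Where 1 RNA of a comparison was dim, the fold is a bound against the lowest level of probes well above background. The probe's own level was taken on arrays where it was higher. Each dye swap was averaged to 1 sample. Both limma tests were two-sided with Benjamini-Hochberg adjustment over all features, and p-values measure only the spread between these samples. Figures used Python 3.11.15 with matplotlib 3.10.9. Alternatives were another or no normalization, another or no background correction, processed signals, series matrix ratios, other filters, the mean of a gene's probes, single arrays, the 1000 ng/ml pair turned or left out, a trended and robust variance prior, and arrays as samples with the comparison as a random block.

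The 10 genes and the gene lists were chosen with earlier results of these data known. Up to 4 genes past the size with the largest ratio in each comparison were named from the transcription factor and target gene lists. For the lists of other cells and of the interferon response, counts past the size are given. The steps were tested on simulated data. The values of 1 gene among the genes that early B cell factors act on are not reported here.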

Additional observations from a re-analysis of the deposited data

Results flagged for a closer look

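Ratios at 2 doses lay on opposite sides of 0 on every array for 6 genes, in 12 pairs of doses, and these differences were not tested. As labelled, the larger dose minus the smaller gave log2 differences of 2.05 (1000 minus 10 ng/ml) and 2.28 (1000 minus 300 ng/ml) for Ikzf1, -3.38 and -4.36 for Ikzf3, -1.54 and -2.26 for Lef1, and -0.50 and -0.80 for Pou2af1. For Foxo1 the differences were 0.66 (300 minus 10 ng/ml) and -0.60 (1000 minus 300 ng/ml), and for Irf4 they were 1.35 and, as a bound, -2.14 or lower, since the 1000 ng/ml RNA was not well above background. How many of all features had such pairs was not counted. Of these 12 pairs, 10 include the 1000 ng/ml arrays, whose direction is unsettled. Across all probes those arrays ran against the 300 ng/ml arrays (r = -0.359 and -0.46), so opposite signs are not particular to these genes. The 2 between the later arrays are those of Foxo1 and Irf4, and one of the Foxo1 arrays at 300 ng/ml lay at 0.00. Bach2 is not counted here because 1 of its 300 ng/ml arrays has no value. Its other array there lay above 0, and its arrays at 10 and 1000 ng/ml below.

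In the RNA labelled as clone 4 without doxycycline, the mean level of the brightest probe over the 2 arrays of a comparison stood apart on the 1000 ng/ml arrays for 3 genes. It was 10.78 for Ikzf3 (gap over range 0.961, the next comparison at 7.00), 12.62 for Lef1 (0.872, the next at 11.31) and 8.31 for Irf4 (0.949, the next at 6.68). Each exceeds Dixon's critical value for 4 comparisons, which chance exceeds in about 1 in 20 groups. Among the 20038 features 2099 exceeded it with the 1000 ng/ml arrays standing apart, and 954 (4.76%) with them highest. The control levels of the other measured Ikzf3 probes on the 1000 ng/ml arrays overlapped those on the other arrays, but were near background.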

How the results depend on the processing

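With median centring, the number of the 10 genes past the size was 0 in place of 1 at 10 ng/ml, 2 in place of 5 at 1000 ng/ml and 2 in place of 4 in Pax5sz2. Without normalization it was 0 at 10 ng/ml, 1 in place of 3 at 300 ng/ml (0 higher, 1 lower), 1 at 1000 ng/ml and 1 in Pax5sz2 (1 higher, 0 lower), where the median of all features itself lay at 0.43 in Pax5sz2 and 0.35 at 10 ng/ml. With the mean of a gene's probes it was 2 in Pax5sz2. With single arrays the share of all features past the size was 2.78% and 3.45% at 10 ng/ml (without replicate 1, then 2). It was 5.46% and 11.3% at 300 ng/ml, 3.43% and 3.82% at 1000 ng/ml, and 6.35% and 6.9% in Pax5sz2. Single arrays gave 1 to 2 genes at 10 ng/ml (the second being Ebf1, without replicate 2), 3 to 4 at 300 ng/ml (Spib joining without replicate 2), 5 to 6 at 1000 ng/ml (Spib joining without replicate 1) and 4 to 5 in Pax5sz2 (Irf8 joining without replicate 1). The other alternatives kept these counts within 1.5 times, while the share of all features past the size moved more: with processed signals it was 5.2%, 9.42%, 3.32% and 10.6% at 10, 300 and 1000 ng/ml and in Pax5sz2, with the series matrix ratios 5.26%, 9.26%, 4.59% and 10.8%, with median centring 0.749%, 2.4%, 0.958% and 3.4%, and without normalization 0.215%, 1.97%, 0.494% and 1.52%.

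With the sign of the 1000 ng/ml pair turned, its count was 5 with all 5 genes higher: Ebf1 1.09, Ikzf3 3.08, Lef1 1.34, Bach2 1.49 and Irf4 1.44 (from an RNA not well above background). Without that pair 1 gene in place of 0 passed the mean effect. The number of the 10 genes passing the difference between Pax5sz2 and the doses was 0 under every alternative. Among all features 11 passed it with the sign turned and 1 without normalization. With arrays as samples, which counts the 2 arrays of an RNA separately, 288 features passed it. A trended, robust variance prior left 0 of the 10 genes with an unadjusted p under 0.05 in either test, with 0 features for the mean effect and 1368 for the difference. With arrays as samples and the comparison as a random block it was 1 gene and 2272 features, and 3 genes and 1959 features. Of the single-gene values under the alternatives, 297 moved by less than the SD of the 2 arrays and 98 by more (leaving out Bach2 at 300 ng/ml, which has no SD), and 5 values past the size changed sign, those just listed. Many of the 297 could not have moved by more. Leaving out 1 of 2 arrays always moves the mean by less than their SD. Leaving out the filter on dim probes changed no value, nor did the mean of probes for genes with 1 measured probe. Causes were not tested. No paired analysis was possible because the labels give no replicate numbers that the compared groups share.

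The number of arrays, and signal near background at 1000 ng/ml for Irf4 and for the less bright Ikzf3 probes, limit what can be read.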
